A study of Arabidopsis thaliana with 30 samples.

Results

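The 10 genes described here encode small heat shock proteins (sHSPs) of Arabidopsis thaliana: *HSP17.6C* (AT1G53540), *HSP17.4* (AT3G46230), *HSP17.8* (AT1G07400), *HSP18.2* (AT5G59720), *HSP17.6II* (AT5G12020), *HSP17.6A* (AT5G12030), *HSP21* (AT4G27670), *HSP22* (AT4G10250), *HSP23.5* (AT5G51440) and *HSP23.6* (AT4G25200). They were taken by gene identifier from a transcript table of 25300 genes and 30 RNA-seq libraries, and all 10 had a row. Whole 4-d-old seedlings of 5 genotypes were compared at 27 °C and 21 °C, with 3 libraries in each of the 10 groups. All lines are in the Col-0 background. The *pif457* line carries mutations in the genes of the bHLH factors PIF4, PIF5 and PIF7. The *hyl1-2* line carries a null allele of *HYL1*, which encodes a cofactor of miRNA processing. The *dcl1-24/hyl1-2* line, recovered in a mutagenesis screen of *hyl1-2*, adds a dominant missense allele of *DCL1*, the miRNA-processing ribonuclease. MIM156 expresses a decoy transcript for miR156 from the constitutive 35S promoter. Col-0 is the wild type. In every group seeds were stratified for 5 d at 4 °C and seedlings grew in continuous red light of 50 µmol m-2 s-1, with 2 d at 21 °C followed by another 2 d at 27 °C or at 21 °C. Each library is poly(A) RNA of whole seedlings, so that fewer cells with a transcript and less transcript per cell cannot be told apart.

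sHSPs are ATP-independent chaperones built around an alpha-crystallin domain. They assemble into large oligomers and hold unfolding proteins in a soluble state, from which the HSP70 and HSP101 machines can refold them. In plants the family has separate members for the cytosol, the chloroplast, the endoplasmic reticulum and the mitochondria. Most of their genes are nearly silent in unstressed vegetative tissue and are switched on by heat shock factors (HSFs), which bind heat shock elements, arrays of inverted GAA units near the gene start.

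The upstream letters of these genes are shown because such elements are the best known feature of sHSP promoters. A 2-unit element was searched as GAANNTTC or TTCNNGAA and a 3-unit element as GAANNTTCNNGAA or TTCNNGAANNTTC. The 2-unit patterns read the same on both strands and the 3-unit patterns are each other's reverse complement, so both strands were covered, and a 3-unit match contains overlapping 2-unit matches. Within 250 bases upstream of the annotated gene start, 5 of the 10 genes held a 2-unit match, against 16.1% of 27443 protein-coding genes, and 2 of the 10, *HSP17.6C* and *HSP17.4*, held a 3-unit match, against 0.386% of those genes. No match of these letters was present in that window for *HSP17.8*, *HSP18.2*, *HSP17.6II*, *HSP22* or *HSP23.6*. The 120 bases before the gene start are printed 5′ to 3′ on the strand of the gene for 4 of the 5 genes with a match, from RefSeq assembly TAIR10.1, with the matched letters in capitals. They lie at chr1:19980179-19980298 (plus strand) for *HSP17.6C*, chr3:16984868-16984987 (minus strand) for *HSP17.4*, chr4:13819972-13820091 (minus strand) for *HSP21* and chr5:20891043-20891162 (plus strand) for *HSP23.5*. The window of *HSP17.6A* reaches into a neighbouring gene and is not printed.
HSP17.6C: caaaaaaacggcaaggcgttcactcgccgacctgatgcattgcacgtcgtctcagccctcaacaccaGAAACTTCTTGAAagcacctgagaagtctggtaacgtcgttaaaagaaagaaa
HSP17.4: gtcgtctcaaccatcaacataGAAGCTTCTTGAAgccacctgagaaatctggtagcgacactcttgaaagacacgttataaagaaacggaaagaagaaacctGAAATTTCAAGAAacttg
HSP21: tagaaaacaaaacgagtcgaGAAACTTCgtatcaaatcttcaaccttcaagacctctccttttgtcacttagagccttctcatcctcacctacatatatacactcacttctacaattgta
HSP23.5: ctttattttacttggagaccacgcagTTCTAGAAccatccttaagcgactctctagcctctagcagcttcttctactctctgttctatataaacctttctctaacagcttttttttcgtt
The map of element positions shows that *HSP17.4* had 3-unit matches at 99 to 87 bases and at 18 to 6 bases before its start and *HSP17.6C* at 53 to 41 bases. The 2-unit matches of *HSP17.6A*, *HSP21* and *HSP23.5* began 22, 100 and 94 bases before the start. A match describes letters and is not a measured binding site.

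**Figure D1:**
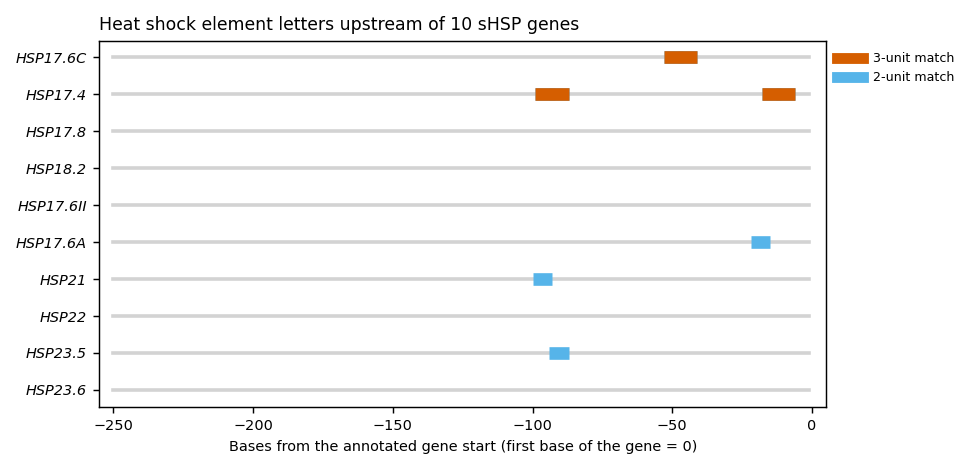
Positions of heat shock element letters in the 250 bases upstream of the annotated start of each of the 10 genes. The x axis gives bases from the gene start, each grey line is a gene's window, orange blocks are 3-unit matches and blue blocks 2-unit matches outside them. *HSP17.4* carries 2 of the 3-unit blocks and *HSP17.6C* carries 1, and 5 genes carry no block.

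Transcript levels are in CPM, the reads of a gene scaled to the same fixed total of counted reads in every library. The libraries held 18415138 to 27079748 reads counted to genes, so that 1 read was worth 0.0369 to 0.0543 CPM and the limit allowed by a count of 0, 3 reads, was 0.111 to 0.163 CPM. In the *pif457* libraries *PIF5* stood at 3.74 to 11.8 CPM and *PIF7* at 0.565 to 1.92 CPM, against 44.9 to 109.7 CPM and 10.04 to 14.8 CPM in Col-0. *PIF4* had 51.8 to 55.98 CPM in *pif457* against 79.1 to 112 CPM in Col-0 at 27 °C and 12.6 to 14.65 CPM in *pif457* against 20.5 to 40.4 CPM in Col-0 at 21 °C, so that its transcript was still counted in the line and does not check that part of the label. Transcripts of *IPS1*, on which the decoy is built, reached 32918 to 57279 CPM in MIM156, against at most 0.0479 CPM in Col-0. The *HYL1* count did not check the *hyl1-2* label, with 12.7 to 18.3 CPM in *hyl1-2* against 6.17 to 8.73 CPM in Col-0 at 27 °C and 2.01 to 3.50 CPM in *hyl1-2* against 4.51 to 5.81 CPM in Col-0 at 21 °C. Directions for *hyl1-2* and *dcl1-24/hyl1-2* below therefore concern the libraries labelled so. Summed levels of 11 seed transcripts, a tissue in which some sHSP genes are active without heat, were 24.1 to 62.0 CPM in *pif457*, 5.18 to 18.3 CPM in *hyl1-2*, 3.82 to 20.5 CPM in *dcl1-24/hyl1-2*, 7.04 to 191 CPM in MIM156 and 12.3 to 21.1 CPM in Col-0 at 27 °C, against 0.801 to 14.02 CPM over the groups at 21 °C. Sums of 4 shoot transcripts at 27 °C were 42845 to 43864 CPM in *pif457*, 34181 to 38134 CPM in *hyl1-2*, 27993 to 32365 CPM in *dcl1-24/hyl1-2*, 21912 to 24171 CPM in MIM156 and 30930.0 to 34338 CPM in Col-0, with *pif457* above and MIM156 below all Col-0 libraries. Sums of 4 root transcripts at 27 °C were 2.26 to 34.5 CPM in *pif457*, 2.59 to 6.92 CPM in *hyl1-2*, 11.5 to 37.1 CPM in *dcl1-24/hyl1-2*, 13.7 to 20.8 CPM in MIM156, with at least 13.3 CPM in each Col-0 library and *hyl1-2* below all of them. The part of these markers in the sHSP results was not tested.

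The 10 genes together made up 20.8 to 42.9 CPM in *pif457*, 9.70 to 13.9 CPM in *hyl1-2*, 16.7 to 21.0 CPM in *dcl1-24/hyl1-2*, 12.6 to 17.9 CPM in MIM156 and 24.5 to 43.3 CPM in Col-0 at 27 °C, against 0.817 to 3.93 CPM over all 15 libraries at 21 °C. The family was thus more abundant at 27 °C in every genotype. The Col-0 libraries lay above all libraries of *hyl1-2*, *dcl1-24/hyl1-2* and MIM156, while the lowest *pif457* library fell just under the highest of *dcl1-24/hyl1-2*. *HSP23.5* alone gave 61.4 to 66.0% of the sum in MIM156, against 30.7 to 45.1% in Col-0 at 27 °C. Between 8 and 10 of the genes had at least 1 read in each 27 °C library, against 4 to 7 in each 21 °C library.

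Per kilobase of coding length, *HSP23.5* was the most abundant in Col-0 at 27 °C, at 20.4 ± 4.39 CPM per kb (mean ± SD, n = 3). This scale compares genes only roughly, because reads were counted over annotated genes, which also hold untranslated bases. The single exon of *HSP17.4*, for example, spans 750 bases, of which 471 are coding. *HSP17.8* (11.6 ± 5.42), *HSP17.4* (8.46 ± 2.31), *HSP17.6C* (7.07 ± 2.19), *HSP17.6II* (6.09 ± 1.91), *HSP17.6A* (4.64 ± 2.54), *HSP18.2* (3.35 ± 1.03) and *HSP23.6* (2.98 ± 1.92) followed, all in CPM per kb. *HSP22* (1.03 ± 0.410) and *HSP21* (0.330 ± 0.459) were the lowest. Apart from *HSP23.5*, whose lowest library (17.42) lay above the highest of *HSP17.8* (15.2), neighbours in this order had overlapping libraries. The study counted uniquely aligned reads, so that levels of close copies are uncertain where their reads align to both. Coding sequences were 86.1% identical between *HSP17.6II* and *HSP17.6A*, 85.0% between *HSP17.6C* and *HSP17.4* and 87.9% between *HSP17.8* and the family gene AT1G59860.

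**Figure D2:**
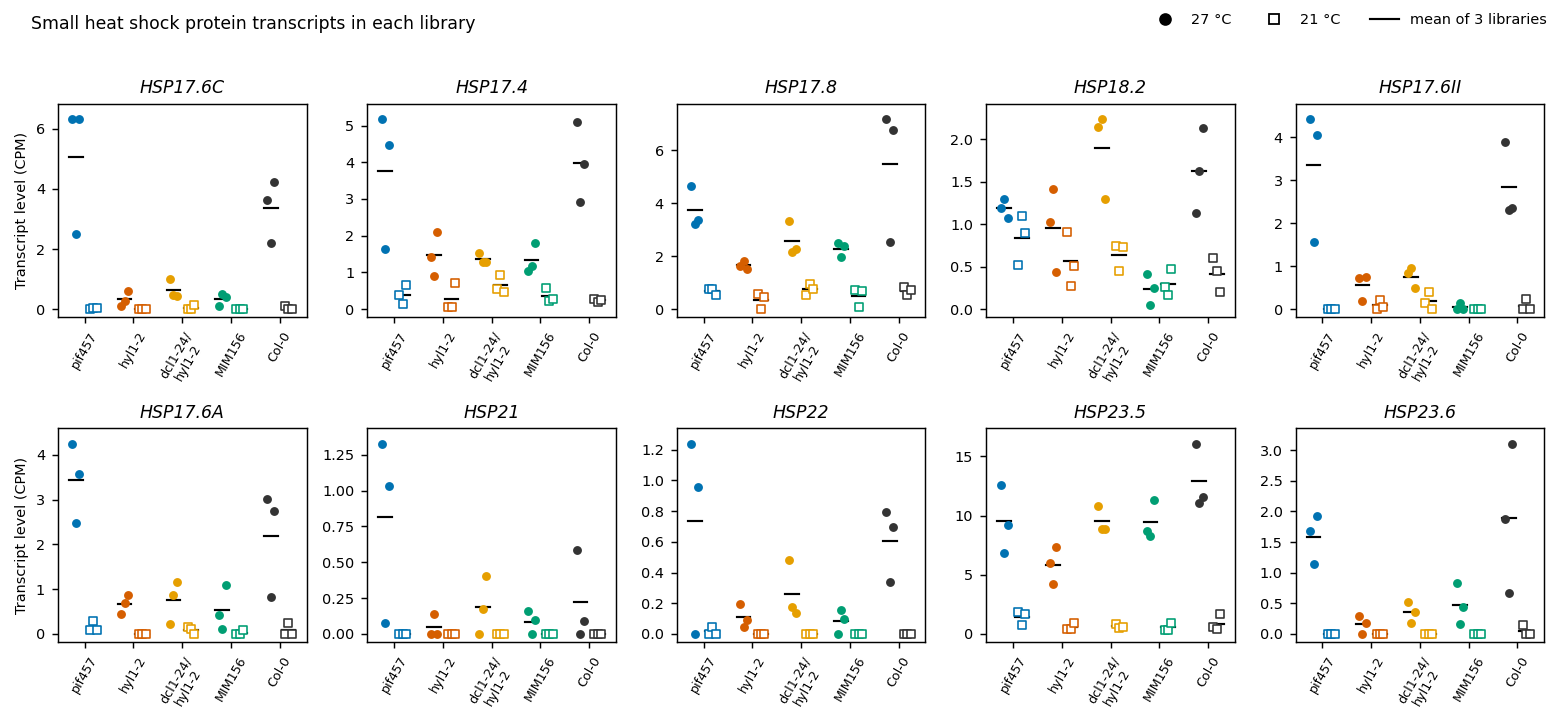
Transcript level in CPM (y axis, linear, own scale per gene) of the 10 genes in each library, with filled circles for 27 °C to the left of open squares for 21 °C in each genotype and bars for the mean of 3 libraries. The 27 °C libraries of *pif457* and Col-0 hold the highest values of most genes, *HSP23.5* is raised in all 5 genotypes, and the temperatures overlap for *HSP18.2* in *pif457*, *hyl1-2* and MIM156.

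Warmth was compared within each genotype as log2(CPM + 0.5), in a limma fit over all 30 libraries, with Benjamini-Hochberg adjustment over the 21780 genes that reached 1 CPM in 3 libraries. Changes are given relative to the median gene of the comparison, which itself moved by 0.01 in *pif457*, 0.28 in *hyl1-2*, 0.32 in *dcl1-24/hyl1-2*, 0.36 in MIM156 and 0.27 in Col-0, while the adjusted p tests the change without that shift. Because of the pseudocount these values understate the change of such low genes. *HSP21* and *HSP22* did not reach the minimum, and several others reached it only through the warm libraries, so counts over the 8 tested genes are a description. A gene was called where adjusted p was under 0.05.

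*HSP17.6C*, a class I sHSP of the cytosol (chr1:19980299-19981199, plus strand, 1 exon), was almost absent at 21 °C and separated the genotypes into higher and lower ones at 27 °C. At 27 °C, *HSP17.6C* stood at 6.33, 2.52 and 6.31 CPM in *pif457*, 0.0976, 0.274 and 0.613 CPM in *hyl1-2* and 1.01, 0.474 and 0.446 CPM in *dcl1-24/hyl1-2*. MIM156 had 0.104, 0.515 and 0.398 CPM of *HSP17.6C* at 27 °C, against 3.63, 2.21 and 4.22 CPM in Col-0. At 21 °C the gene had 0 to 3 reads per library, at most 0.138 CPM in any of the 15 libraries. All 27 °C libraries of *pif457* and Col-0 were at or above 2.21 CPM, and all those of the other 3 lines were at or below 1.01 CPM. In Col-0 the pooled reads were 224 at 27 °C and 2 at 21 °C, a depth-corrected ratio of 103 with an exact counting interval of 28.3 to 859 (95%, counting error only). *HSP17.6C* rose by 3.28 ± 0.31 in *pif457* (log2, relative to the median gene, ± SE; adjusted p = 1.03e-08, limma) and by 2.55 ± 0.31 in Col-0 (adjusted p = 1.29e-07). In *dcl1-24/hyl1-2* its change was 0.72 ± 0.31 (adjusted p = 0.0120, but 0.0850 without 27 °C replicate 1). In *hyl1-2* and MIM156 it was 0.40 ± 0.31 (adjusted p = 0.0753) and 0.36 ± 0.31 (adjusted p = 0.0660) on this scale, although all 27 °C libraries of both lines had reads and all their 21 °C libraries had none. By the lower end of the exact counting interval (95%), the pooled level was at least 4.91-fold higher at 27 °C in *hyl1-2* and at least 5.34-fold higher in MIM156. Both rises were called by edgeR (adjusted p = 0.0102 and 0.0149) and by DESeq2.

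*HSP17.4*, the class I gene with 2 of the 3-unit elements (chr3:16984118-16984867, minus strand, 1 exon), was detected at 21 °C as well. At 27 °C, *HSP17.4* stood at 5.18, 1.65 and 4.47 CPM in *pif457*, 1.42, 0.915 and 2.10 CPM in *hyl1-2* and 1.54, 1.29 and 1.29 CPM in *dcl1-24/hyl1-2*. The *HSP17.4* level at 27 °C was 1.04, 1.18 and 1.79 CPM in MIM156, against 5.09, 2.92 and 3.94 CPM in Col-0. Its 21 °C values ranged over 0.144 to 0.662 CPM in *pif457*, 0.0537 to 0.700 CPM in *hyl1-2*, 0.459 to 0.938 CPM in *dcl1-24/hyl1-2*, 0.215 to 0.583 CPM in MIM156 and 0.198 to 0.279 CPM in Col-0, without overlap with the 27 °C values of the same genotype. The mean level was 9.55-fold higher at 27 °C in *pif457*, 5.49-fold in *hyl1-2*, 2.12-fold in *dcl1-24/hyl1-2*, 3.72-fold in MIM156 and 16.3-fold in Col-0. The rise was called in *pif457* (adjusted p = 3.02e-05), *hyl1-2* (adjusted p = 0.00177), MIM156 (adjusted p = 0.0126, but 0.0612 without 27 °C replicate 3 and 0.0748 under median-of-ratios scaling or 0.0765 in edgeR) and Col-0 (adjusted p = 2.22e-06) and not in *dcl1-24/hyl1-2* (adjusted p = 0.0987). The annotated long noncoding RNA AT3G07365 lies on the opposite strand over 453 of the 750 bases of *HSP17.4*. Since no source used here says whether the libraries or the counting kept strand, reads of this pair cannot be told apart. AT3G07365 had 4.43, 1.30 and 3.95 CPM in *pif457*, 1.07, 0.274 and 1.18 CPM in *hyl1-2* and 4.13, 2.78 and 3.29 CPM in Col-0 at 27 °C, and at most 0.281 CPM in any library at 21 °C.

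*HSP17.8*, another class I gene of the cytosol (chr1:2274926-2275783, plus strand, 1 exon), was called higher at 27 °C in all 5 genotypes in limma. At 27 °C, *HSP17.8* stood at 4.65, 3.22 and 3.36 CPM in *pif457*, 1.61, 1.83 and 1.53 CPM in *hyl1-2* and 3.34, 2.16 and 2.28 CPM in *dcl1-24/hyl1-2*. MIM156 had 2.50, 1.96 and 2.39 CPM of *HSP17.8* at 27 °C, against 7.18, 2.54 and 6.77 CPM in Col-0. The 21 °C libraries ranged over 0 to 0.938 CPM in all 5 genotypes, below every 27 °C library, of which the lowest had 1.53 CPM. Within Col-0 at 27 °C, replicate 2 was well below the other two libraries and within the range of the lines. *HSP17.8* rose by 1.83 ± 0.32 in *pif457* (log2, relative to the median gene, ± SE), 1.14 ± 0.32 in *hyl1-2*, 0.97 ± 0.32 in *dcl1-24/hyl1-2*, 1.18 ± 0.32 in MIM156 and 1.94 ± 0.32 in Col-0, with adjusted p between 8.62e-06 and 0.00376 (limma). In *dcl1-24/hyl1-2* edgeR did not call it (adjusted p = 0.0656).

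*HSP18.2*, the last of the class I genes listed here (chr5:24062323-24063300, plus strand, 1 exon), had overlapping temperatures in 3 of the 5 genotypes. At 27 °C, *HSP18.2* stood at 1.196, 1.30 and 1.07 CPM in *pif457*, 1.03, 1.42 and 0.438 CPM in *hyl1-2* and 2.15, 2.24 and 1.29 CPM in *dcl1-24/hyl1-2*. The *HSP18.2* level at 27 °C was 0.417, 0.0515 and 0.249 CPM in MIM156, against 1.13, 1.63 and 2.13 CPM in Col-0. At 21 °C its libraries had 0.518, 1.101 and 0.899 CPM in *pif457*, 0.265, 0.172 and 0.468 CPM in MIM156 and 0.604, 0.446 and 0.204 CPM in Col-0. The temperatures overlapped in *pif457*, *hyl1-2* and MIM156 and were separate in *dcl1-24/hyl1-2* and Col-0. *HSP18.2* rose in *dcl1-24/hyl1-2* (0.73 ± 0.30, adjusted p = 0.00955, limma, but 0.0781 under median-of-ratios scaling and 0.133 in edgeR) and in Col-0 (0.94 ± 0.30, adjusted p = 0.00321). In MIM156 its relative change was -0.49 ± 0.30 (adjusted p = 0.753) and the 27 °C libraries held 8, 1 and 5 reads. Over the 10 group means, the correlations of *HSP18.2* with the other 7 tested genes had Pearson's r of 0.564 to 0.763, while the other pairs had r of 0.727 to 0.979, as a description over groups that share the temperature contrast.

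The class II cytosolic genes *HSP17.6II* (chr5:3882231-3883111) and *HSP17.6A* (chr5:3883957-3884838) are neighbours on the minus strand of chromosome 5. At 27 °C, *HSP17.6II* stood at 4.43, 1.57 and 4.06 CPM in *pif457*, 0.732, 0.183 and 0.744 CPM in *hyl1-2* and 0.835, 0.949 and 0.491 CPM in *dcl1-24/hyl1-2*. MIM156 had 0, 0.155 and 0 CPM of *HSP17.6II* at 27 °C, against 3.88, 2.30 and 2.36 CPM in Col-0. *HSP17.6II* had no read at 21 °C in *pif457* or MIM156 and at most 0.395 CPM in the other genotypes. MIM156 thus stood apart, with 3 reads of *HSP17.6II* in its 3 warm libraries against 192 in Col-0. *HSP17.6II* rose by 2.84 ± 0.32 in *pif457* (adjusted p = 2.14e-07, limma) and by 2.25 ± 0.32 in Col-0 (adjusted p = 1.12e-06), while its change in MIM156 was -0.23 ± 0.32 (adjusted p = 0.770). In *pif457* its pooled level was at least 56.7-fold higher at 27 °C, by the lower end of the exact counting interval. The calls in *hyl1-2* (adjusted p = 0.0436) and *dcl1-24/hyl1-2* (adjusted p = 0.0314) were each lost in 4 of the 6 fits that left out a library of the line. Both were also lost under median-of-ratios scaling, with a pseudocount of 2 and in a fit of the compared groups alone. Neither edgeR (adjusted p = 0.0960 and 0.232) nor DESeq2 (adjusted p = 0.0519 and 0.173) called them.

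At 27 °C, *HSP17.6A* stood at 4.25, 2.48 and 3.58 CPM in *pif457*, 0.439, 0.686 and 0.876 CPM in *hyl1-2* and 0.220, 0.862 and 1.16 CPM in *dcl1-24/hyl1-2*. The *HSP17.6A* level at 27 °C was 0.417, 0.103 and 1.09 CPM in MIM156, against 3.01, 0.815 and 2.74 CPM in Col-0. *HSP17.6A* had at most 0.287 CPM at 21 °C, and the temperatures did not overlap in any genotype. It rose by 2.56 ± 0.36 in *pif457* (log2, relative to the median gene, ± SE; adjusted p = 5.83e-06, limma), by 0.93 ± 0.36 in *hyl1-2* (adjusted p = 0.00873), by 0.70 ± 0.36 in *dcl1-24/hyl1-2* (adjusted p = 0.0304, and up to 0.141 with a library of the line left out, 0.102 under median-of-ratios scaling and 0.0654 in edgeR) and by 1.83 ± 0.36 in Col-0 (adjusted p = 6.58e-05). Its change in MIM156 did not pass the limma test (0.50 ± 0.36, adjusted p = 0.0575, and 0.0181 without 27 °C replicate 2). There 32 reads at 27 °C stood against 2 at 21 °C, a depth-corrected ratio of 17.3 (exact counting interval 4.41 to 149), and it was called by edgeR (adjusted p = 0.0476), by DESeq2 (adjusted p = 0.0232), with a pseudocount of 0.1 (adjusted p = 0.0184) and without the minimum level (adjusted p = 0.0476).

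*HSP21*, the chloroplast sHSP (chr4:13818825-13819971, minus strand, 2 exons), and *HSP22*, the sHSP of the endoplasmic reticulum (chr4:6370338-6371372, plus strand, 1 exon), were the scarcest members. At 27 °C, *HSP21* stood at 1.33, 0.0786 and 1.03 CPM in *pif457*, 0, 0.137 and 0 CPM in *hyl1-2* and 0, 0.172 and 0.402 CPM in *dcl1-24/hyl1-2*. MIM156 had 0.157, 0 and 0.0994 CPM of *HSP21* at 27 °C, against 0.585, 0 and 0.0927 CPM in Col-0. *HSP21* had no read in any of the 15 libraries at 21 °C. By the lower end of the exact counting interval, its pooled level was at least 13.3-fold higher at 27 °C in *pif457* and at least 3.56-fold higher in Col-0. The Col-0 reads were mostly in replicate 1 (0.585 CPM), and the counting interval leaves out such spread between libraries. At 27 °C, *HSP22* stood at 1.24, 0 and 0.960 CPM in *pif457*, 0.195, 0.0457 and 0.0876 CPM in *hyl1-2* and 0.483, 0.172 and 0.134 CPM in *dcl1-24/hyl1-2*. The *HSP22* level at 27 °C was 0, 0.155 and 0.0994 CPM in MIM156, against 0.793, 0.336 and 0.695 CPM in Col-0. *HSP22* had a single read in the 15 libraries at 21 °C, in *pif457*, and by the same lower end was at least 9.81-fold higher at 27 °C in Col-0. Replicate 2 was the lowest warm library of both genes in *pif457* and in Col-0. In a limma fit without the minimum, *HSP22* rose in *pif457* (adjusted p = 0.00747) and Col-0 (adjusted p = 0.00316). *HSP21* rose in *pif457* (adjusted p = 0.00310) and did not pass that test in Col-0 (adjusted p = 0.255). Neither gene passed it in *hyl1-2*, *dcl1-24/hyl1-2* or MIM156.

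The mitochondrial genes *HSP23.5* (chr5:20891163-20892416, plus strand, 2 exons) and *HSP23.6* (chr4:12916926-12918110, plus strand, 2 exons) are 71.5% identical in coding sequence but differed in level. At 27 °C, *HSP23.5* stood at 12.6, 6.80 and 9.23 CPM in *pif457*, 6.01, 4.21 and 7.31 CPM in *hyl1-2* and 10.8, 8.88 and 8.88 CPM in *dcl1-24/hyl1-2*. MIM156 had 8.71, 8.29 and 11.3 CPM of *HSP23.5* at 27 °C, against 16.1, 11.03 and 11.5 CPM in Col-0. Its 21 °C libraries ranged over 0.766 to 1.84 CPM in *pif457*, 0.376 to 0.887 CPM in *hyl1-2*, 0.494 to 0.842 CPM in *dcl1-24/hyl1-2*, 0.344 to 0.935 CPM in MIM156 and 0.397 to 1.68 CPM in Col-0. *HSP23.5* rose in every genotype, with mean levels 6.65-fold higher at 27 °C in *pif457*, 10.7-fold in *hyl1-2*, 15.2-fold in *dcl1-24/hyl1-2*, 17.2-fold in MIM156 and 14.66-fold in Col-0 (adjusted p from 6.47e-09 to 1.96e-06, limma). At 27 °C, *HSP23.6* stood at 1.68, 1.14 and 1.92 CPM in *pif457*, 0.293, 0 and 0.175 CPM in *hyl1-2* and 0.527, 0.172 and 0.357 CPM in *dcl1-24/hyl1-2*. The *HSP23.6* level at 27 °C was 0.835, 0.155 and 0.447 CPM in MIM156, against 1.88, 0.671 and 3.11 CPM in Col-0. *HSP23.6* had 3 reads in 1 Col-0 library and none in the other 14 libraries at 21 °C. It rose in *pif457* (2.03 ± 0.32, adjusted p = 2.82e-05) and Col-0 (1.72 ± 0.32, adjusted p = 2.89e-05), and in MIM156 the call (adjusted p = 0.0247) was lost without 27 °C replicate 1 or 3 or 21 °C replicate 3, with adjusted p of up to 0.155, and under median-of-ratios scaling (adjusted p = 0.0711). The changes in *hyl1-2* (0.09 ± 0.32, adjusted p = 0.359) and *dcl1-24/hyl1-2* (0.42 ± 0.32, adjusted p = 0.0698) did not pass in limma. In *dcl1-24/hyl1-2* 24 reads at 27 °C stood against 0 at 21 °C, at least 5.48-fold by the lower end of the exact counting interval. The rise was called there by edgeR (adjusted p = 0.0338), by DESeq2 (adjusted p = 0.00681), with a pseudocount of 0.1 (adjusted p = 0.0134) and without the minimum level (adjusted p = 0.0475). DESeq2 also called *hyl1-2* (adjusted p = 0.0422), on 10 reads at 27 °C against 0 at 21 °C.

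**Figure D3:**
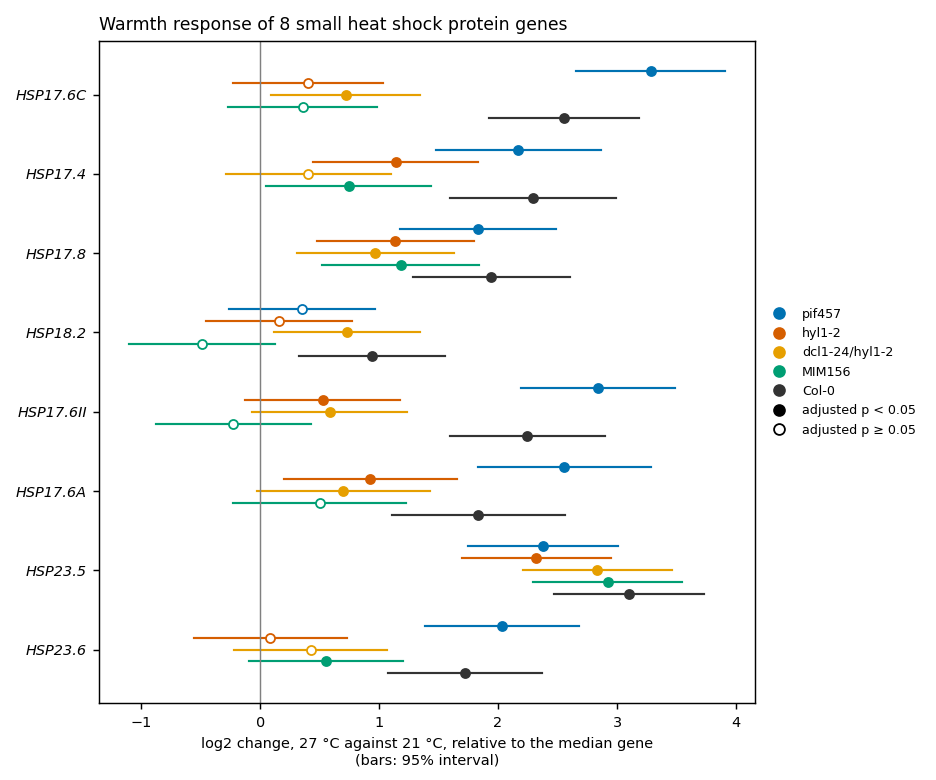
Log2 change at 27 °C against 21 °C relative to the median gene (x axis) for the 8 tested genes in 5 genotypes, with 95% intervals from the limma fit. Filled points are changes called at adjusted p under 0.05 on the change without the median shift, so an interval drawn here can cross 0 at a filled point. *pif457* and Col-0 lie to the right of the other 3 lines for *HSP17.6C*, *HSP17.6II* and *HSP23.6*, while all 5 genotypes lie above 2 for *HSP23.5*.

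Of the 8 tested genes, 7 were called higher at 27 °C in *pif457* (7.82% of all tested genes were), 5 in *hyl1-2* (31.8%), 6 in *dcl1-24/hyl1-2* (27.3%), 4 in MIM156 (34.2%) and 8 in Col-0 (25.1%), and none was called lower. Their median relative change was 2.27 in *pif457*, 0.73 in *hyl1-2*, 0.71 in *dcl1-24/hyl1-2*, 0.53 in MIM156 and 2.09 in Col-0 (log2), against 0 over all tested genes by construction. Median-of-ratios scaling, which removes the shift of the median gene, left 7 genes called in *pif457* (8.28% of all tested genes), 4 in *hyl1-2* (14.3%), 3 in *dcl1-24/hyl1-2* (6.48%), 2 in MIM156 (8.57%) and 8 in Col-0 (8.54%). Over all genes this scaling changed the share of calls that were higher to 45.6% in *hyl1-2* (78.5% in CPM), 45.1% in *dcl1-24/hyl1-2* (89.3%), 46.8% in MIM156 (90.6%) and 46.9% in Col-0 (84.4%). In MIM156 the count was 2 without 27 °C replicate 3. A fit without the minimum level called 9 of all 10 genes in *pif457*, 5 in *hyl1-2*, 7 in *dcl1-24/hyl1-2*, 6 in MIM156 and 9 in Col-0. The share of all genes called in that fit was not counted, so these counts have no background. All 10 genes can be read without a test by whether the 3 libraries at 27 °C lay above the 3 at 21 °C. They did for 8 genes in *pif457* (17.2% of all genes), 6 in *hyl1-2* (34.6%), 9 in *dcl1-24/hyl1-2* (35.9%), 6 in MIM156 (38.7%) and 9 in Col-0 (31.7%). *HSP21* was the exception in *dcl1-24/hyl1-2* and Col-0.

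At 27 °C the lines differed in how much sHSP transcript they held, and *pif457* was not among the low lines. The median gene moved by -0.13 in *pif457*, -0.07 in *hyl1-2*, 0.16 in *dcl1-24/hyl1-2* and 0.10 in MIM156 against Col-0 at 27 °C (log2), and differences are again relative to it. None of the 8 tested genes was called between *pif457* and Col-0 at 27 °C, where 17.2% of all tested genes were, and none had an unadjusted p under 0.05 or was called by edgeR or DESeq2. The differences ran from -0.31 (*HSP23.5*, interval -0.94 to 0.32) to 0.78 (*HSP17.6A*, interval 0.05 to 1.51) on the log2 scale relative to the median gene (95% intervals), so that these libraries leave room for differences of that size, and the unadjusted p of *HSP17.6A* tests its difference without the shift. *HSP21* averaged 360% of the Col-0 level in *pif457*, a value that rests on 60 reads in *pif457*, 2 of them in replicate 2, and 16 in Col-0, 14 of them in replicate 1.

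In the libraries labelled *hyl1-2*, 6 of the 8 genes were lower than in Col-0 at 27 °C (3.14% of all tested genes were) and none was higher. *HSP17.6C* had a log2 difference of -2.16 ± 0.31 (adjusted p = 1.39e-05, limma), *HSP23.6* of -1.67 ± 0.32 (adjusted p = 5.66e-04), *HSP17.6II* of -1.62 ± 0.32 (adjusted p = 8.98e-04) and *HSP17.8* of -1.29 ± 0.32 (adjusted p = 0.00936). Of these, *HSP17.6C*, *HSP23.6* and *HSP17.6II* reached the minimum level only through the 27 °C libraries of *pif457* and Col-0. *HSP17.4* and *HSP23.5* were called closer to the threshold (adjusted p = 0.0372 and 0.0364). *HSP17.6A* (-1.03 ± 0.36, adjusted p = 0.0827) and *HSP18.2* (-0.51 ± 0.30, adjusted p = 0.384) did not pass. The count was 3 without Col-0 27 °C replicate 1 or without replicate 3, and 3 in edgeR. By libraries alone, 7 of the 10 genes were lower in all 3 *hyl1-2* libraries than in all 3 Col-0 libraries, as were 15.1% of all genes.

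In the libraries labelled *dcl1-24/hyl1-2*, 3 of the 8 genes were called lower than in Col-0 at 27 °C, against 0.946% of all tested genes. These were *HSP17.6C* (-1.91 ± 0.31, adjusted p = 9.38e-04, limma), *HSP17.6II* (-1.56 ± 0.32, adjusted p = 0.0132) and *HSP23.6* (-1.52 ± 0.32, adjusted p = 0.0162). All 3 reached the minimum level only through the 27 °C libraries of *pif457* and Col-0. *HSP17.4* missed the threshold (-1.39 ± 0.34, adjusted p = 0.0510, and 0.0196 with the replicate number as a block), and *HSP18.2* was level with Col-0 relative to the median gene (0.01 ± 0.30, interval -0.60 to 0.62). The count of lower genes was 1 without Col-0 replicate 1 or *dcl1-24/hyl1-2* replicate 3 at 27 °C and 5 without Col-0 replicate 2 at 27 °C, and *HSP17.6C* was the gene called in edgeR. In this comparison 5 of the 10 genes had separate libraries, against 6.15% of all genes.

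In MIM156, 7 of the 8 genes were called lower than in Col-0 at 27 °C (10.4% of all tested genes were) and none higher. *HSP17.6II* had a log2 difference of -2.68 ± 0.32 (adjusted p = 3.65e-07, limma), *HSP17.6C* of -2.29 ± 0.31 (adjusted p = 2.79e-06), *HSP18.2* of -1.63 ± 0.30 (adjusted p = 2.83e-04) and *HSP17.6A* of -1.46 ± 0.36 (adjusted p = 0.00480). *HSP17.4*, *HSP23.6* and *HSP17.8* were also called (adjusted p = 0.00532, 0.00501 and 0.0207). Among the called genes, *HSP17.6II*, *HSP17.6C*, *HSP17.6A* and *HSP23.6* reached the minimum level only through the 27 °C libraries of *pif457* and Col-0. *HSP23.5* was not called (-0.52 ± 0.31, adjusted p = 0.334) and its MIM156 mean was 73.3% of that in Col-0, while those of *HSP17.6II* and *HSP17.6C* were 1.81% and 10.11%. The call of *HSP17.8* was lost without Col-0 replicate 1 or 3 or MIM156 replicate 2, that of *HSP17.6A* without MIM156 replicate 2 and that of *HSP23.6* without Col-0 replicate 3, all at 27 °C, with adjusted p of up to 0.127. The 3 MIM156 libraries lay below the 3 Col-0 libraries for 6 of the 10 genes, as for 16% of all genes. All these comparisons of lines share the 3 Col-0 libraries at 27 °C, of which replicate 2 was the lowest for 9 of the 10 genes. Replicate 2 was also the lowest *pif457* library at 27 °C for 9 genes.

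**Figure D4:**
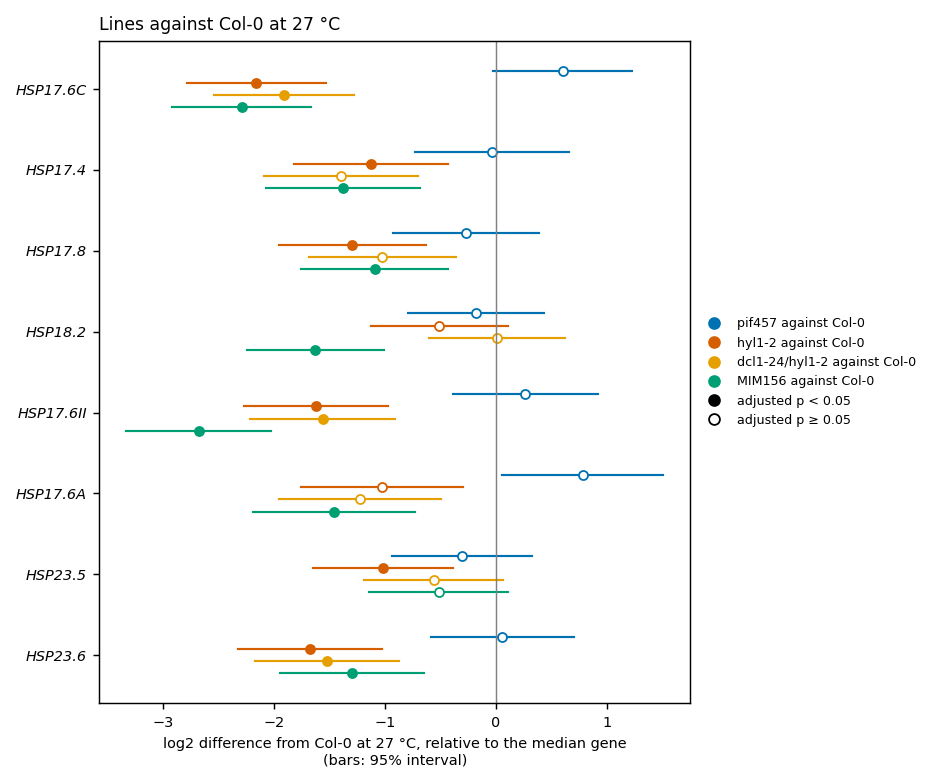
Log2 difference between each of 4 lines and Col-0 at 27 °C relative to the median gene (x axis) for the 8 tested genes, with 95% intervals, filled where adjusted p was under 0.05. Points of *pif457* scatter around 0, and those of *hyl1-2*, *dcl1-24/hyl1-2* and MIM156 lie at or below 0.01 for all 8 genes.

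None of the 8 tested sHSP genes was called between *dcl1-24/hyl1-2* and *hyl1-2*, the comparison that bears on what the suppressor allele changed. At 27 °C 0 of 8 genes were called (11.7% of all tested genes were, in either direction), and 0 in edgeR and DESeq2. An unadjusted p under 0.05 was reached by 2 of the 8 genes and by 6328 genes overall. Intervals of the differences reached from -0.95 to 1.14 over the 8 genes. *HSP23.5*, at 10.8, 8.88 and 8.88 CPM in *dcl1-24/hyl1-2* against 6.01, 4.21 and 7.31 CPM in *hyl1-2*, did not overlap between the lines but was not called (0.47 ± 0.31, adjusted p = 0.137, and 0.0488 in a fit of these groups alone). At 21 °C 0 of 8 genes were called as well (31.5% of all tested genes were), with 0 at an unadjusted p under 0.05 and 0 by the count tools.

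At 21 °C no gene of the 8 tested was called between any line and Col-0. None of the 8 genes was called against Col-0 in *pif457* (8.99% of all tested genes were called), *hyl1-2* (19.4%), *dcl1-24/hyl1-2* (0.845%) or MIM156 (25.4%). None had an unadjusted p under 0.05 or was called by edgeR or DESeq2 in these 4 comparisons. Without Col-0 replicate 3, which held the most *HSP23.5* of the Col-0 libraries (0.558, 0.397 and 1.68 CPM), *HSP23.5* was called higher in *pif457* (adjusted p = 0.0396). Most members were within a few reads of 0 at this temperature, and 3 reads in the shallowest library were worth 0.163 CPM. Much larger differences could also go uncalled, as for *HSP23.5*, with means of 1.44 CPM in *pif457* and 0.879 CPM in Col-0 at 21 °C.

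The responses to warmth were set against that of Col-0 as a difference of log2 changes, in tests that share the 6 Col-0 libraries. In the libraries labelled *hyl1-2*, 3 of 8 genes had a smaller response than in Col-0 (2.74% of all tested genes did): *HSP17.6C* (-2.17 ± 0.43, adjusted p = 0.00690), *HSP17.6II* (-1.74 ± 0.45, adjusted p = 0.0279) and *HSP23.6* (-1.65 ± 0.45, adjusted p = 0.0356). In MIM156, 2 of 8 had a smaller response (0.689% of all tested genes did), *HSP17.6II* (-2.48 ± 0.45, adjusted p = 0.00404) and *HSP17.6C* (-2.20 ± 0.43, adjusted p = 0.00789). *HSP17.6C*, *HSP17.6II* and *HSP23.6* reached the minimum level only through the 27 °C libraries of *pif457* and Col-0. Their smaller responses are therefore partly built into the choice of tested genes, and these counts are a description. edgeR and DESeq2, which compare ratios of reads, called 0 genes in both comparisons (adjusted p of *HSP17.6C* 0.818 in *hyl1-2* and 0.886 in MIM156, edgeR), where *HSP17.6C* has no read at 21 °C in either line and 2 in Col-0. An unadjusted p under 0.05 was reached by 4 genes in *hyl1-2* and 6 in MIM156, all with smaller responses. Over all 21780 tested genes it was reached by 4660 in *hyl1-2* and 3015 in MIM156, in either direction. The *hyl1-2* count was 1 without Col-0 27 °C replicate 1, *hyl1-2* 21 °C replicate 2 or *hyl1-2* 27 °C replicate 2. In *dcl1-24/hyl1-2* no gene of the 21780 was called in limma, edgeR or DESeq2 (0% in the lower direction), although 5 sHSP genes, all with smaller responses, and 938 genes overall had an unadjusted p under 0.05. In *pif457* 0 of 8 were called (2.78% of all tested genes were), and 0 by the count tools. There 1 sHSP gene and 3772 genes overall had an unadjusted p under 0.05, and *HSP23.5* was called without Col-0 21 °C replicate 3 (adjusted p = 0.0449).

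Among 9 further genes annotated as HSP20-like chaperones, 8 were tested. In CPM, warmth raised 3 of them in *pif457* (7.82% of all tested genes), 4 in *hyl1-2* (31.8%), 4 in *dcl1-24/hyl1-2* (27.3%), 3 in MIM156 (34.2%) and 5 in Col-0 (25.1%), and none was called lower. Under median-of-ratios scaling it raised 3 in *pif457* (8.28%), 4 in *hyl1-2* (14.3%), 3 in *dcl1-24/hyl1-2* (6.48%), 2 in MIM156 (8.57%) and 4 in Col-0 (8.54%), and 1 was called lower in *hyl1-2*. In *hyl1-2*, *dcl1-24/hyl1-2* and MIM156 these scaled counts equal those of the 8 sHSP genes described above. At 27 °C the 3 MIM156 libraries lay below the 3 Col-0 libraries for 6 of these 9 genes, as for 16% of all genes. AT2G19310 had 50.8, 37.0 and 40.6 CPM in MIM156 and 66.3, 62.5 and 80.2 CPM in Col-0 at 27 °C, against 12.8, 14.4 and 17.63 CPM in MIM156 and 22.3, 26.1 and 36.4 CPM in Col-0 at 21 °C. It rose in MIM156 (1.13 ± 0.19, adjusted p = 1.30e-06, limma) and Col-0 (1.04 ± 0.19, adjusted p = 6.38e-06) and was lower in MIM156 than in Col-0 at 27 °C (-0.80 ± 0.19, adjusted p = 0.00533) and at 21 °C (-0.89 ± 0.19, adjusted p = 6.57e-04). AT1G59860, the closest copy of *HSP17.8*, rose in all 5 genotypes, to 2.93, 1.83 and 2.28 CPM in *hyl1-2* and 3.01, 3.79 and 3.62 CPM in Col-0 at 27 °C, and was not called between those lines (-0.42 ± 0.28, adjusted p = 0.430). It was lower in MIM156 than in Col-0 at 27 °C (-1.03 ± 0.28, adjusted p = 0.0114), with 1.30, 2.16 and 1.34 CPM in MIM156. In a limma fit without the minimum level, AT1G59860 was higher in *pif457* than in Col-0 at 21 °C (0.77 ± 0.27, adjusted p = 0.0400). AT2G29500 was the gene of this set that was lower in *hyl1-2* than in Col-0 at 27 °C (1.37, 1.24 and 1.93 CPM in *hyl1-2* against 7.73, 3.02 and 6.31 CPM in Col-0; -1.48 ± 0.31, adjusted p = 0.00177), and it was also lower in MIM156 (-1.28 ± 0.31, adjusted p = 0.00465). Within *hyl1-2*, AT2G29500 had lower values in all 3 libraries at 27 °C than in the 3 at 21 °C (2.95, 3.04 and 2.33 CPM at 21 °C), with a change of -0.99 ± 0.31, adjusted p = 0.0650 in CPM. AT1G54050 and AT5G47600 rose in Col-0 (1.03 ± 0.26, adjusted p = 5.37e-04, and 0.93 ± 0.31, adjusted p = 0.00443). AT4G21870, AT5G54660 and AT5G37670 did not pass the warmth test in any genotype in CPM. At 21 °C, in the limma fit without the minimum level, AT4G21870 was lower in *hyl1-2* than in Col-0 (-1.69 ± 0.51, adjusted p = 0.0207). There AT4G21870 was also higher in *dcl1-24/hyl1-2* than in *hyl1-2* (1.36 ± 0.51, adjusted p = 0.0305), and AT2G19310 was lower (-0.93 ± 0.19, adjusted p = 0.00323). AT1G52560 reached at most 0.263 CPM and was not tested.

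Of 9 genes of the HSP70, HSP90 and HSP101 type, warmth raised 4 in *pif457* (7.82% of all tested genes), 6 in *hyl1-2* (31.8%), 5 in *dcl1-24/hyl1-2* (27.3%), 9 in MIM156 (34.2%) and 5 in Col-0 (25.1%). Under median-of-ratios scaling it raised 4 in *pif457* (8.28%), 5 in *hyl1-2* (14.3%), 4 in *dcl1-24/hyl1-2* (6.48%), 4 in MIM156 (8.57%) and 4 in Col-0 (8.54%), and 2 were called lower in *pif457*, 1 in *dcl1-24/hyl1-2* and 1 in Col-0. Of 8 tested heat cofactor genes, warmth raised 7 in *pif457*, 7 in *hyl1-2*, 8 in *dcl1-24/hyl1-2*, 8 in MIM156 and 8 in Col-0, against the same shares of all tested genes. Under the scaling it raised 7 of the 8 in *pif457*, 6 in *hyl1-2*, 5 in *dcl1-24/hyl1-2*, 6 in MIM156 and 5 in Col-0. *HSP70-4* (AT3G12580), a heat-inducible cytosolic HSP70, had 137, 114 and 117 CPM in *hyl1-2*, 147, 144 and 148 CPM in MIM156 and 312, 240.3 and 239 CPM in Col-0 at 27 °C, against 17.1, 15.6 and 18.7 CPM in Col-0 at 21 °C. Its relative change with warmth was 2.81 ± 0.20 in *hyl1-2*, 3.66 ± 0.20 in MIM156 and 3.62 ± 0.20 in Col-0, and it was lower at 27 °C in *hyl1-2* (-1.03 ± 0.20, adjusted p = 5.14e-04, limma) and MIM156 (-0.93 ± 0.20, adjusted p = 0.00186) than in Col-0. *HSP90.1*, the heat-inducible cytosolic HSP90, changed by 3.09 ± 0.25 in *hyl1-2*, 3.76 ± 0.25 in MIM156 and 3.24 ± 0.25 in Col-0, and passed no test between either line and Col-0 at 27 °C. *HSP101*, which dissolves aggregates that sHSPs hold, rose in Col-0 (1.17 ± 0.17, adjusted p = 5.06e-07) and was lower in *hyl1-2* than in Col-0 at 27 °C (-0.65 ± 0.17, adjusted p = 0.0110). The cofactor genes with the largest changes in Col-0 were *HOP3* (2.7001 ± 0.22, adjusted p = 2.12e-10), a co-chaperone of HSP70 and HSP90, *ROF2* (2.37 ± 0.26, adjusted p = 1.96e-08), a heat-inducible immunophilin, and *GOLS1* (2.31 ± 0.22, adjusted p = 2.29e-09), a galactinol synthase. *ROF2* was lower (-1.33 ± 0.26, adjusted p = 5.54e-04) and *GOLS1* higher (0.83 ± 0.22, adjusted p = 0.00236) in MIM156 than in Col-0 at 27 °C.

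Of 10 tested HSF genes, 4 rose with warmth in *pif457* (7.82% of all tested genes), 5 in *hyl1-2* (31.8%), 5 in *dcl1-24/hyl1-2* (27.3%), 7 in MIM156 (34.2%) and 7 in Col-0 (25.1%), where *HSFA1E* was lower. Under median-of-ratios scaling 4 rose in *pif457* (8.28%), 4 in *hyl1-2* (14.3%), 3 in *dcl1-24/hyl1-2* (6.48%), 4 in MIM156 (8.57%) and 3 in Col-0 (8.54%). *HSFA2*, a heat-inducible activator of sHSP genes, had 1.73, 1.30 and 1.18 CPM in *pif457*, 1.27, 1.42 and 1.05 CPM in *hyl1-2*, 2.03, 2.78 and 2.09 CPM in MIM156 and 3.05, 2.45 and 2.69 CPM in Col-0 at 27 °C. *HSFA2* rose in Col-0 (1.69 ± 0.28, adjusted p = 6.05e-06) and *HSFA3* did so as well (1.07 ± 0.27, adjusted p = 4.66e-04). Neither was called between any line and Col-0 at 27 °C, although *HSFA2* averaged 51.4% of Col-0 in *pif457* and 45.7% in *hyl1-2*. In both lines its libraries were separate from those of Col-0. Of the 10 HSF genes, 1 was called higher than in Col-0 at 27 °C in *pif457* (4.23% of all tested genes were). In MIM156 1 was called higher as well (16.3%), and in *hyl1-2* and *dcl1-24/hyl1-2* 0 were called. *HSFA7A* averaged 233% of the Col-0 level in *pif457* and 203% in MIM156 at 27 °C. Set beside one another as a share of the Col-0 mean at 27 °C, the 10 sHSP genes had a median of 106% in *pif457*, 25.2% in *hyl1-2*, 38.9% in *dcl1-24/hyl1-2* and 25.0% in MIM156. For the 9 other HSP20-like genes the medians were 86.9% in *pif457*, 87.7% in *hyl1-2*, 96.3% in *dcl1-24/hyl1-2* and 61.7% in MIM156, where the lowest gene was at 36.2%. The 9 heat cofactor genes had medians of 97.6% in *pif457*, 71.7% in *hyl1-2*, 102% in *dcl1-24/hyl1-2* and 83.4% in MIM156. For the 9 HSP70, HSP90 and HSP101 type genes the medians were 84.9% in *pif457*, 71.1% in *hyl1-2*, 105% in *dcl1-24/hyl1-2* and 90.9% in MIM156, and for the 11 HSF genes they were 104% in *pif457*, 85.1% in *hyl1-2*, 105% in *dcl1-24/hyl1-2* and 98.3% in MIM156. Between *dcl1-24/hyl1-2* and *hyl1-2* at 27 °C, 6 of the 9 HSP70, HSP90 and HSP101 type genes were called higher (4 under median-of-ratios scaling). Of the 8 tested sHSP genes 0 were called in either direction (11.7% of all tested genes were). The summed level of all 10 sHSP genes was nevertheless higher, at 16.7 to 21.0 CPM against 9.70 to 13.9 CPM in *hyl1-2*. Without *HSP23.5* the lowest *dcl1-24/hyl1-2* sum (7.86 CPM) still lay above the highest *hyl1-2* sum (6.57 CPM). As shares of Col-0, the medians of both lists were higher in *dcl1-24/hyl1-2* (38.9% against 25.2% and 105% against 71.1%). Of the sHSP genes, *HSP17.4* alone had a lower share (34.5% against 37.1%). These shares are descriptions, and the lists were not tested against each other.

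**Figure D5:**
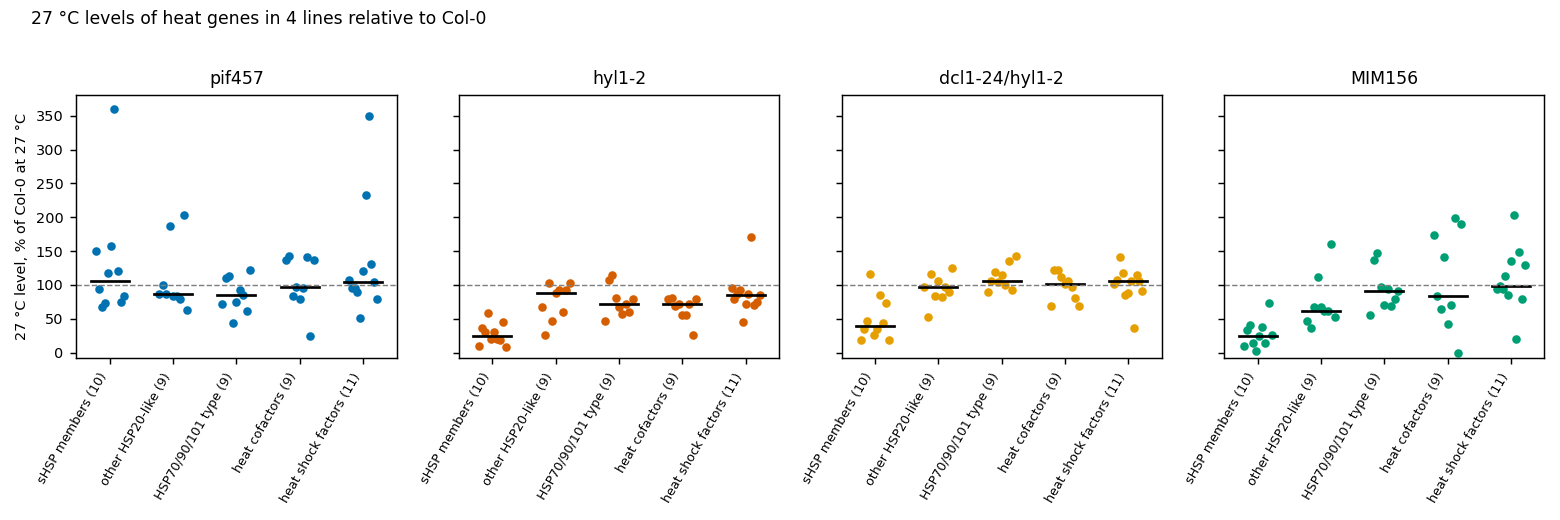
Mean level at 27 °C in each of 4 lines as a percentage of the Col-0 mean at 27 °C (y axis, linear), 1 point per gene, for the 10 sHSP genes and 4 other heat gene lists, with bars at the list median and a dashed line at 100%. The sHSP medians are 25.2% in *hyl1-2*, 38.9% in *dcl1-24/hyl1-2*, 25.0% in MIM156 and 106% in *pif457*.

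The genes whose pattern over the 10 group means was most like the mean pattern of the 8 tested sHSP genes were AT3G07365 (Pearson's r = 0.987), *EMB1793* (AT1G76060, r = 0.980), *PDAT* (AT5G13640, r = 0.957), *CNGC8* (AT1G19780, r = 0.944) and *HTA12* (AT5G02560, r = 0.942). The first is the noncoding transcript opposite *HSP17.4*. *EMB1793* averaged 9.56 ± 2.51 CPM in *hyl1-2*, 9.03 ± 1.195 CPM in MIM156 and 13.5 ± 2.77 CPM in Col-0 at 27 °C, against 6.72 ± 2.701 CPM in Col-0 at 21 °C (SD, n = 3 each). The likeness is a description across 10 points that share the temperature contrast.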

How the data were processed

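Poly(A) RNA of whole seedlings was sequenced in 30 libraries, 3 in each of 10 groups. According to the study's methods, reads were aligned with STAR 2.7.7a, uniquely aligned reads were counted on Araport11 genes with featureCounts 2.0.1, and DESeq2 1.35.0 served for the authors' own tests. The deposited sheet is labelled FPKM, but its columns each sum to 999904 to 999960 and every value is a whole number of reads (tolerance 0.001), so the values the authors deposited are CPM without correction for gene length. Reads were recovered from these steps. No source used here states whether the counting used strand.

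Genes with at least 1 CPM in 3 libraries (21780 of 25300) were tested as log2(CPM + 0.5) in limma 3.58.1 (trend and robust options, R 4.3.3), with 1 mean per group and Benjamini-Hochberg adjustment over all tested genes, in 19 comparisons. The study reports 3 biological replicates for its RNA sequencing, and no source used here says whether these came from separate cultures. The p-values measure the spread between the libraries of a group. No 2 libraries of a group agreed within sampling noise. The script was tested on simulated data. Genes, coordinates, coding sequences and upstream sequences came from RefSeq TAIR10.1, which had all 10 genes.

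The 10 genes, the other gene lists and the tests were chosen with earlier results of these data known. All 10 genes and the 9 other HSP20-like genes are named. From each further list, up to 4 genes with the largest change called for warmth in Col-0, with no overlap of the 6 libraries, were named, and the 5 genes most like the family over the group means. The alternatives were pseudocounts of 0.1 and 2, no minimum level, median-of-ratios scaling, the replicate number as a block, a fit of the compared groups alone, edgeR 4.0.16 and DESeq2 1.42.0 on the recovered reads, and leaving out each library.

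The main fit used no pairing, and the replicate number entered only as an alternative. By the rule used here, same-numbered libraries counted as related where each of the 3 correlations of their deviations from the group means was over 0.1. This held for 7 comparisons, among them warmth in Col-0 (0.144 to 0.170) and the difference from Col-0 at 27 °C in *hyl1-2* (0.175 to 0.199) and *dcl1-24/hyl1-2* (0.103 to 0.189). For *dcl1-24/hyl1-2* against Col-0 at 27 °C, the fit with the block also called *HSP17.4* (adjusted p = 0.0196, limma), which the main fit did not. The labels do not say what the numbers share.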

Additional observations from a re-analysis of the deposited data

Results flagged for a closer look

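For 5 results the response to warmth differed between a line and Col-0 by the test of the difference itself (limma, Benjamini-Hochberg adjustment over all tested genes). In *hyl1-2* the difference of the log2 responses was -2.17 for *HSP17.6C* (adjusted p = 0.00690), -1.74 for *HSP17.6II* (adjusted p = 0.0279) and -1.65 for *HSP23.6* (adjusted p = 0.0356). In MIM156 it was -2.48 for *HSP17.6II* (adjusted p = 0.00404) and -2.20 for *HSP17.6C* (adjusted p = 0.00789). Neither edgeR nor DESeq2 called any of the 5 on the recovered reads. All 5 rest on genes with 0 to 5 reads per library at 21 °C in the genotypes compared.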

How the results depend on the processing

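No called change turned its direction under any alternative. The number of sHSP genes called moved by over 1.5 times as follows. With a pseudocount of 2, 3 genes rose with warmth in *hyl1-2* and 3 in *dcl1-24/hyl1-2*, 5 were lower in *dcl1-24/hyl1-2* than in Col-0 at 27 °C, and 1 differed between *dcl1-24/hyl1-2* and *hyl1-2* at 27 °C. With a pseudocount of 0.1, 3 were lower in *hyl1-2* and 1 in *dcl1-24/hyl1-2* than in Col-0 at 27 °C, 1 differed between *dcl1-24/hyl1-2* and *hyl1-2* at 21 °C, and 1 had a smaller response in *hyl1-2* and 1 in MIM156. Median-of-ratios scaling gave 3 genes that rose in *dcl1-24/hyl1-2* and 2 in MIM156. edgeR gave 3 that rose in *dcl1-24/hyl1-2*, 3 lower in *hyl1-2* and 1 lower in *dcl1-24/hyl1-2* than in Col-0 at 27 °C, and 0 smaller responses in *hyl1-2* and in MIM156, as did DESeq2 (0 and 0). A fit of the compared groups alone gave 1 difference between *dcl1-24/hyl1-2* and *hyl1-2* at 27 °C and 1 smaller response in *hyl1-2*. Apart from scaling, which removes the shift of the median gene, the cause was not tested.

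Leaving out 1 library at a time gave 2 to 5 genes that rose in MIM156, 3 to 6 lower in *hyl1-2* and 1 to 5 lower in *dcl1-24/hyl1-2* than in Col-0 at 27 °C, 0 to 1 called between *pif457* and Col-0 at 21 °C, 0 to 1 between *dcl1-24/hyl1-2* and *hyl1-2* at 21 °C, 0 to 1 differing responses in *pif457* and 1 to 3 smaller ones in *hyl1-2*. Of 1104 single-gene values from these fits, 50 lost and 9 gained a call. With the replicate number as a block, at 27 °C *HSP17.4* was called lower in *dcl1-24/hyl1-2* than in Col-0 (adjusted p = 0.0196). In comparisons where the libraries share only a number, *HSP23.6* in *dcl1-24/hyl1-2* (adjusted p = 0.0448) and *HSP17.6A* in MIM156 (adjusted p = 0.0494) were called for warmth, and the block changed no other call.

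Depth is the main limit. At 21 °C most of these genes had few or no reads, so the size of their response has no upper bound in these data and depends on the pseudocount.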
